A study of Mus musculus with 23 samples.

Results

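The adult lacrimal gland of the mouse was set against the epithelium of the embryonic lacrimal gland, which answers how the branching rudiment differs from the secreting organ. The members were chosen by sample title and are 5 of the 23 arrays of the series. They comprise 2 arrays of the whole gland at 7 weeks and 3 arrays of epithelium separated from the gland at embryonic day 16.5 (E16.5). A further 3 arrays, of the mesenchyme separated from the gland at E16.5, marked genes that were higher in mesenchyme than in epithelium, because a whole gland brings its stroma with it, and gave a further embryonic layer to compare with. All of these mice carried the background strain label B6/CL, and the labels list no allele and no treatment. Sex, pooling of glands and the number of animals are not given. Each p-value therefore reflects only the spread within groups of the 23 arrays of the series, which all groups share, and that spread may be technical. The adult samples hold every cell type of the organ, whereas the embryonic samples are 1 separated tissue layer, so age and dissection cannot be told apart in any difference below.

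Secreted proteins of tears had the largest differences in favour of the adult gland, and acinar factors and the protein-folding machinery of the endoplasmic reticulum (ER) were mostly higher too. Of 51 listed tear and gland proteins 35 were measured and 32 were higher in the adult gland, and of 55 ER genes 47 were higher. In the embryonic epithelium 39 of 40 cell cycle genes were higher than in the adult gland, as were the FGF response genes Etv4 and Etv5, the fetal RNA-binding protein Igf2bp3 and the cartilage collagens Col2a1 and Col9a1. Several factors known for building the gland, Pax6, Foxc1, Sox9 and Six2, were not called different between the ages. These counts and values rest on limma's moderated test over all 16324 measured genes with Benjamini-Hochberg adjustment, and a gene is said to be called, higher or lower where its adjusted p was under 0.05.

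As background, the lacrimal gland grows from the conjunctival epithelium as a bud that branches into the surrounding mesenchyme, which supplies the ligand Fgf10 to the receptor Fgfr2 on the epithelium. The mature organ is built of acini, whose cells make and store protein granules, of ducts that modify the fluid, and of contractile myoepithelial cells around the acini. Nerves trigger release through muscarinic and adrenergic receptors and calcium. Acinar cells depend on the transcription factors Bhlha15 and Xbp1, which expand the ER and the granule pathway.

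Signal and background differed between the ages. The 75th percentile of signal, which scaled each array, lay between 138.7 and 193.6 intensity units on the adult lacrimal arrays and between 475.4 and 857.2 on the arrays of embryonic epithelium. Between 42.4% and 50.3% of the adult spots were well above background, against 58.3% to 61.7% of the embryonic spots. The 20 brightest probes took up to 9.16% of the signal on an adult lacrimal array and at most 4.61% on the other 21 arrays. All levels below are log2 signal minus the 75th percentile of the array, a relative scale on which a step of 1 is a 2-fold change. On that scale the probes not well above background had a median of -5.23 and -4.77 on the adult arrays and of -7.03, -6.83 and -7.33 on the embryonic ones. On this scale 867 genes that were above background in neither group had a median difference of 1.88, and 682 of them passed the test as higher. Counts of higher genes are therefore also given for genes well above background on both adult arrays.

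Adult array 1 had far higher levels of several salivary gland transcripts than adult array 2. Bpifa2, a major protein of parotid saliva, had a level of 10.60 on array 1 and -2.81 on array 2, where it was not well above background. The amylase Amy1 had 9.26 and -1.17, and the proline-rich protein Prb1 had 6.71 and -2.05. Over all genes 19 were at least 5 log2 units higher on array 1 than on array 2, and 0 the other way, where the SD of the gap over genes was 0.81. Of the 17 measured salivary genes 12 were higher in the adult gland than in the embryonic epithelium, 8 of them above background on both adult arrays, and without adult replicate 1 the list had 7 higher and 3 lower. Their summed signal, as multiples of the 75th percentile, was 2208 at the lower and 4346 at the higher adult array, and 3.94 to 6.57 in the epithelium. Smr3a, Bpifa2 and Amy1 also stand in the tear list, and Bpifa2, Smr3a and Prb1 were singled out after their values were seen. Sval2 and the growth factor Egf, which are on the salivary list too, were high on both arrays. Their part in the results was not tested, and results that rest on array 1 are given with and without it.

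**Figure D1:**
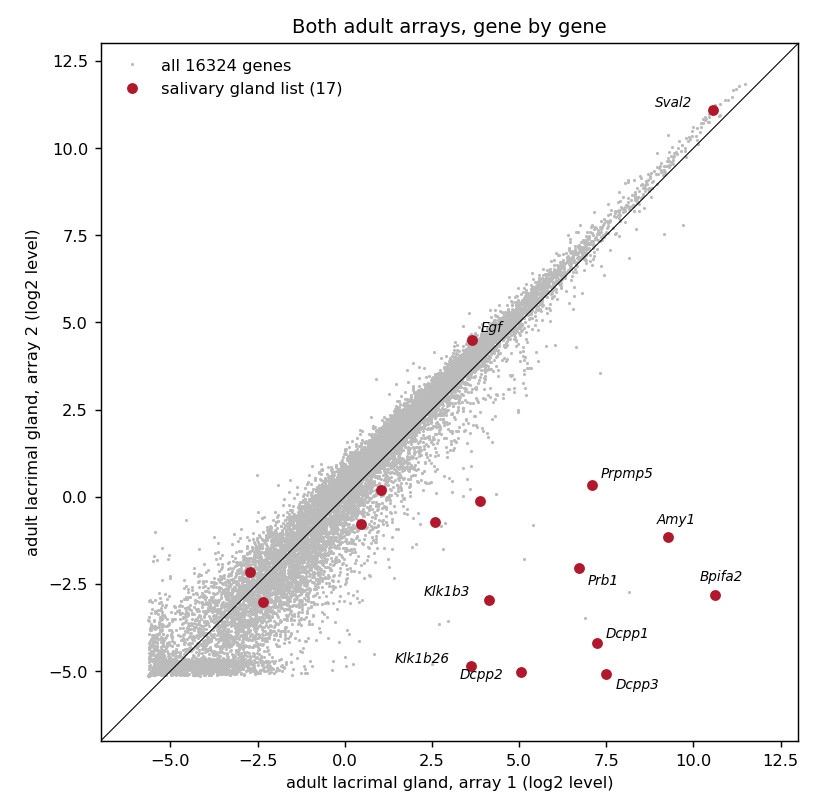
Level of every measured gene (log2 signal minus the array's 75th percentile) on adult lacrimal array 1 (horizontal axis) and adult lacrimal array 2 (vertical axis); each grey point is 1 of 16324 genes, red points are the 17 measured genes of the salivary list, and the line marks equal levels. Most genes lie along the line, while Bpifa2 (10.60 and -2.81), Amy1 (9.26 and -1.17) and Prb1 (6.71 and -2.05) lie far below it and Sval2 and Egf lie close to it.

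Most genes were called different between the adult gland and the embryonic epithelium. Of the 16324 genes 5091 (31.2%) were higher and 6312 (38.7%) lower in the adult gland, and 4040 (24.7%) and 4682 (28.7%) were so by at least 2-fold. Of the higher genes 3977 (24.4% of all) were well above background on both adult arrays. The values of the groups did not overlap for 12515 genes (76.7%). The median difference over all genes was -0.10, and scaling by the median of each array in place of the 75th percentile moved it to -0.57 and the share of calls that were higher from 44.6% to 31.9%. Within the slides that held both groups the median was -0.20 on slide 2 and -0.05 on slide 3, each the difference of 1 adult and 1 embryonic array.

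The embryonic mesenchyme served as a mark for stroma. Mesenchyme was at least 2-fold above epithelium for 3179 genes (19.5%), and 1393 of the 4040 genes that were at least 2-fold higher in the adult gland carried that mark (34.5%), 822 of them above background on both adult arrays. Both comparisons use the same 3 epithelial arrays, so this share is a description. Against both embryonic layers at once, 2602 genes (15.9%) were at least 2-fold higher in the adult gland, 2156 of them (13.2% of all) above background on both adult arrays, and 3188 (19.5%) were at least 2-fold lower. Of the 1393 marked genes 307 were above both layers. In such bulk samples fewer cells of a type and less RNA per cell cannot be told apart.

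**Figure D2:**
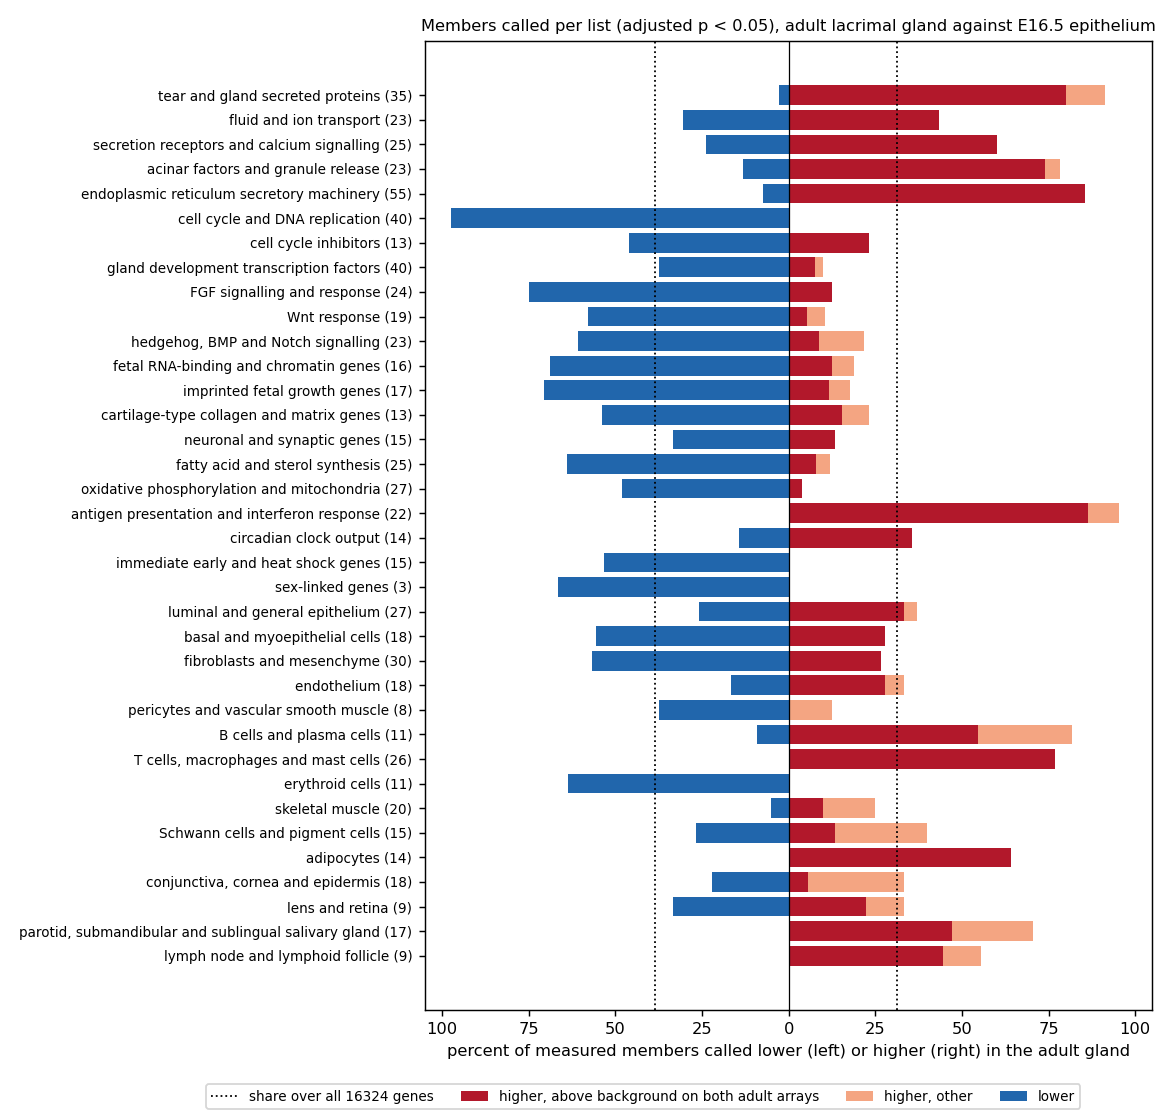
Percent of the measured members of each gene list (number measured in parentheses) that were called lower (blue, left) or higher (right) in the adult gland than in E16.5 epithelium; dark red members were above background on both adult arrays and light red ones were not, and the dotted lines are the shares over all genes, 38.7% lower and 31.2% higher. The bars reach farthest right for tear proteins (32 of 35), ER machinery (47 of 55) and antigen presentation (21 of 22), and farthest left for the cell cycle (39 of 40).

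The tear and gland secreted proteins had the largest differences. Of 35 measured members 32 were higher, 28 of them above background on both adult arrays, and 1 was lower, with a median difference of 9.51 against -0.10 over all genes. Without adult replicate 1, 29 were higher. Against the embryonic mesenchyme as well, 28 were at least 2-fold above both layers. Of the 51 listed genes 43 had a named probe, and 35 of these passed the filter on dim signal. That filter kept probes well above background on every array of any group. Of the 35 members 11 were above background on no array of embryonic epithelium, so they were measured only because another group was bright. For these members the filter favoured a call as higher.

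Sval2, a member of the prolactin-induced protein family, had levels of 10.56 and 11.09 in the adult gland and -7.40, -7.16 and -7.68 in the embryonic epithelium. The embryonic arrays were all below background, so only a bound can be given: Sval2 was at least 62696-fold higher (difference 18.24 ± 0.96 SE, n = 2 and 3, limma adjusted p = 9.18e-12). The bound sets the adult mean against a floor, taken on each array as the higher of the probe's own value and the lowest signal of any probe well above background. The lipocalin Lcn11, of a family of small carriers of hydrophobic molecules, had 11.10 and 11.46 against -6.08, -6.94 and -6.59 and was at least 86125-fold higher. Car6, the secreted carbonic anhydrase of tears and saliva, had 9.99 and 10.61 against -7.17, -6.21 and -7.48, at least 43653-fold. Scgb2b7 and Scgb2b24, of the secretoglobin (androgen-binding protein) family, were at least 78287-fold and 60810-fold higher, and Scgb1b2 had 11.47 and 11.85 against -6.98, -3.85 and -5.85, with 1 of the 3 embryonic arrays above background. For each of these the lowest adult array lay far above the highest embryonic one. Gm14743 and Mucl2, which the rule names beside them, were at least 55952-fold and 54150-fold higher. Secretoglobins, major urinary proteins and exocrine secreted peptides are families of near-identical genes whose probes may share signal, so the values of single members are uncertain.

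Members with a measured embryonic level give folds rather than bounds. Lactoperoxidase, Lpo, an antibacterial enzyme of tears, had 10.11 and 10.56 in the adult gland and -0.94, -0.84 and -0.65 in the epithelium, 2267-fold higher (11.15 ± 0.42 SE, adjusted p = 1.33e-13). The iron-binding protein lactotransferrin, Ltf, had 8.17 and 8.30 against -2.60, -3.34 and -3.97, 2980-fold higher, and carried the mesenchyme mark with embryonic mesenchyme at -1.87, -0.99 and -1.83. Haptoglobin, Hp, which binds free haemoglobin, had 10.21 and 10.72 against -1.45, -1.88 and -1.88 and was also marked, with mesenchyme at 1.13 and 1.17 on its higher arrays. In both genes the adult gland lay above both embryonic layers. The lipase Pnliprp1 had 9.26 and 10.36 against -5.75, -6.33 and -7.42, at least 31074-fold higher.

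Pigr, the receptor that carries immunoglobulin A across the epithelium into tears, depended on the probe. The brighter probe, which stands for the gene here, had 7.86 and 8.75 in the adult gland and 5.31, 5.09 and 6.20 in the epithelium, a difference of 2.77 ± 0.46 SE (adjusted p = 3.09e-05), and it was marked, with mesenchyme at 6.53 to 7.51. The other Pigr probe had 4.62 and 6.47 against -7.40, -7.16 and -7.68, a difference of 12.96. Both were higher in the adult gland, by very different amounts. Wfdc2, a protease inhibitor of epithelia, was the 1 lower member: 0.84 and 0.37 in the adult gland against 4.73, 4.72 and 5.43, a 20.5-fold difference (adjusted p = 1.04e-06).

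**Figure D3:**
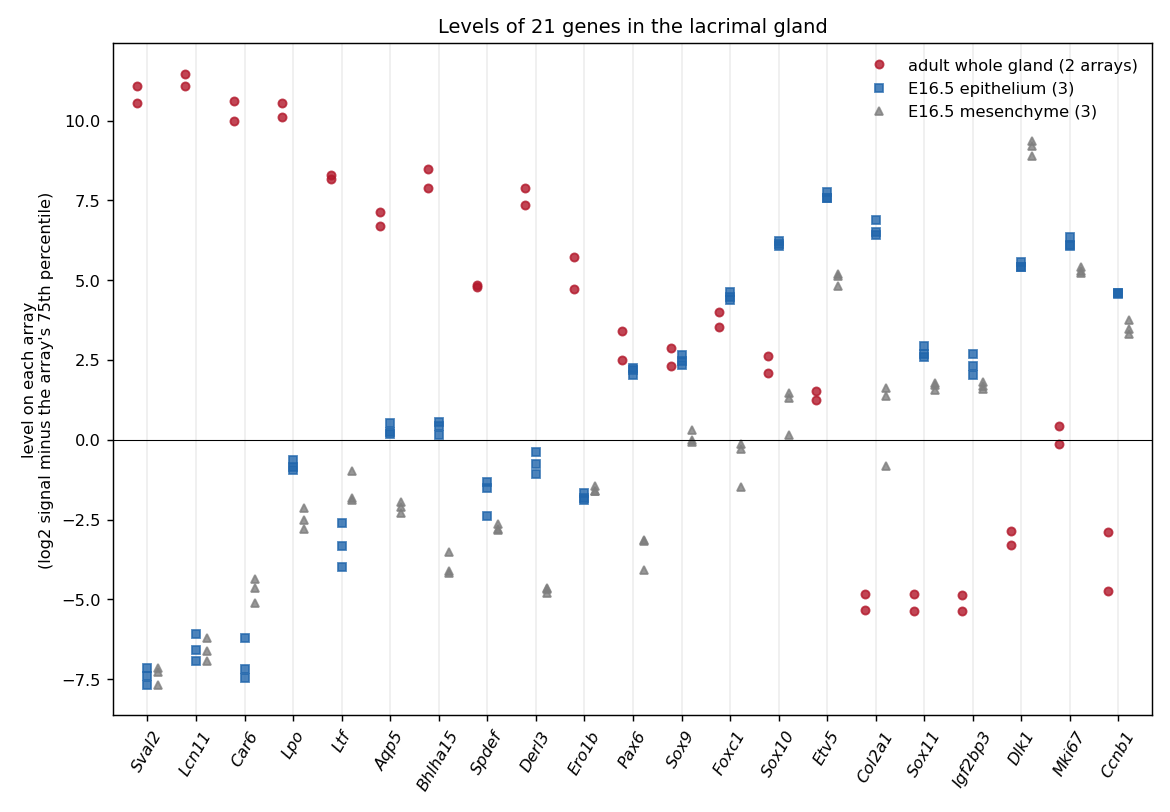
Level on each array (log2 signal minus the array's 75th percentile) of genes from the secreted, acinar, developmental and cell cycle lists, for the adult whole gland (red circles, 2 arrays), E16.5 epithelium (blue squares, 3) and E16.5 mesenchyme (grey triangles, 3); levels may be compared within a gene only. From Sval2 to Ero1b the adult arrays lie above both embryonic layers, from Pax6 to Foxc1 they lie near the epithelium, and from Sox10 to Ccnb1 they lie below it.

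Fluid and ion transport genes were split. Of 23 measured members 10 were higher (43.5%, against 31.2% of all genes) and 7 lower (30.4%, against 38.7%), with a median of 0.38. The water channel Aqp5, which sits on the apical membrane of acinar cells, had 6.71 and 7.14 in the adult gland against 0.53, 0.24 and 0.18, 97.3-fold higher, with mesenchyme at -2.30, -2.09 and -1.96. The calcium-activated potassium channel Kcnma1 had 2.51 and 2.88 against -1.42, -1.69 and -1.45, 18.6-fold higher. The chloride channel Cftr was 9.57-fold higher, at -0.84 and -0.55 against -4.32, -4.47 and -3.09, and was marked, with mesenchyme at -2.40, -1.85 and -1.05. In the other direction the anion transporter Slc26a9 had 1.34, 1.47 and 1.45 in the epithelium and was below background in the adult gland, at least 21.9-fold lower. The potassium channel Kcnn4 was 3.28-fold lower, with both adult arrays below all 3 embryonic ones.

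Receptors and calcium signalling genes were more often higher, 15 of 25, with 6 lower and a median of 1.77. The prolactin receptor Prlr had 2.85 and 3.20 against -3.88, -4.31 and -3.41, 119-fold higher (6.89 ± 0.29 SE, adjusted p = 4.36e-13). The ATP-gated channel P2rx7 was 118-fold higher, at 1.97 and 2.72 against -4.62, -4.45 and -4.53. Both of these genes were marked and lay above both embryonic layers. The muscarinic receptor Chrm3, which carries the nerve signal for secretion, had 0.96 and 1.43 against -1.42, -1.35 and -1.83, 6.63-fold higher. The brighter probe of the muscarinic receptor Chrm1 had -2.86 and -2.09 against 0.72, 0.71 and 1.53, a difference of -3.46. Its other probe differed by only -0.43, with overlapping groups (-4.30 and -4.81 against -4.21, -3.81 and -4.35). How far Chrm1 differed thus depended on the probe. For the peptide receptor Vipr2 the probes went opposite ways, -3.48 for the brighter and 1.34 for the other, so its direction is not settled. The nucleotide receptor P2ry2 was below background on both adult arrays and at least 2.56-fold lower, a call that was lost with normexp background correction (-0.29, adjusted p = 0.106).

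The acinar factors and the granule release genes were higher in 18 of 23 cases, 17 of them above background on both adult arrays, and lower in 3, with a median of 2.02. Without adult replicate 1, 18 were higher and 1 lower. Bhlha15, the master factor of secretory cell architecture, had 7.89 and 8.48 in the adult gland against 0.43, 0.15 and 0.56 in the epithelium, 223-fold higher (7.80 ± 0.47 SE, adjusted p = 6.88e-11), with mesenchyme at -4.17 to -3.50. Spdef, a factor of mucin- and protein-secreting cells, had 4.85 and 4.80 against -1.32, -1.51 and -2.38, 94.6-fold higher. Xbp1, the transcription factor that raises folding capacity, was 16.3-fold higher, at 8.50 and 9.14 against 4.89, 4.62 and 4.88. Rab3d, a small GTPase of secretory granules, had 5.76 and 6.15 against 1.48, 1.25 and 1.56, 23.1-fold higher. Creb3l4 ran the other way, at -2.16 and -1.86 against 0.94, 0.68 and 0.80, 7.06-fold lower.

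In the ER list, which holds translocation, folding, glycosylation and degradation genes, 47 of 55 were higher, all of them above background on both adult arrays, and 4 were lower, with a median of 1.57 and 35 members at least 2-fold above both embryonic layers. Scaling by the median of each array left 36 higher. Derl3, a subunit of the ER-associated degradation channel, had 7.36 and 7.90 in the adult gland and -1.08, -0.75 and -0.40 in the epithelium, 331-fold higher (8.37 ± 0.37 SE, adjusted p = 9.5e-13). The oxidase Ero1b, which supplies disulfide bonds, had 4.71 and 5.72 against -1.82, -1.89 and -1.66, 129-fold higher. The signal peptidase subunit Sec11c was 31.1-fold higher, at 5.48 and 6.05 against 0.84, 0.75 and 0.83. The central chaperone Hspa5, shown because it is the classical target of the stress pathway, had 7.54 and 8.39 against 6.79, 6.71 and 7.24, 2.07-fold higher, a call lost with median scaling and without adult replicate 2. The 4 lower members were Pdia6, Pdia4, Ssr1 and Canx, with differences of -0.82, -0.73, -0.45 and -0.44. The call of Ssr1 turned to a difference of 0.40 (adjusted p = 0.0756) with the median over its probes, and without adult replicate 1 the list had 48 higher and 0 lower.

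The promoters of these genes, the first listed for each symbol, were read from RefSeq's table for GRCm38.p6, 300 bases each, from 250 before to 50 after the annotated start. The ER stress element, searched on both strands as CCAAT and CCACG with 9 bases of any kind between them, stood in 10 of the 45 promoters of the list that the table holds (22.2%) and in 0.13% of all 27025. The capitals below mark it, and the promoters shown are those of the most different members that hold it, Derl3 (chr10:75893148-75893447, plus strand) and Ero1b (chr13:12565633-12565932, plus strand), of Hspa5 (chr2:34771840-34772139, plus strand) and of a member that was lower, Canx (chr11:50325624-50325923, minus strand).
Derl3: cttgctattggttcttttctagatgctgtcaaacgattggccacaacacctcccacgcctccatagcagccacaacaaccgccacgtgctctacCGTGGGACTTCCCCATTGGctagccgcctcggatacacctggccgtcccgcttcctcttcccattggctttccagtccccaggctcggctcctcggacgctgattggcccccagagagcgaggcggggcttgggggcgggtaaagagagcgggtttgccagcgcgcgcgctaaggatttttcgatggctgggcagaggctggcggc
Ero1b: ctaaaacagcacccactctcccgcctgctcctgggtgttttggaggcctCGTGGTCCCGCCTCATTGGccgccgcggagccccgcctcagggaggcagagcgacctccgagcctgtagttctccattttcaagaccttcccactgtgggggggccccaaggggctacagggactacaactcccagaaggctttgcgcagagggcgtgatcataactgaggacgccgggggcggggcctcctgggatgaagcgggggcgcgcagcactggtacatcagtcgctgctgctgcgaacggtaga
Hspa5: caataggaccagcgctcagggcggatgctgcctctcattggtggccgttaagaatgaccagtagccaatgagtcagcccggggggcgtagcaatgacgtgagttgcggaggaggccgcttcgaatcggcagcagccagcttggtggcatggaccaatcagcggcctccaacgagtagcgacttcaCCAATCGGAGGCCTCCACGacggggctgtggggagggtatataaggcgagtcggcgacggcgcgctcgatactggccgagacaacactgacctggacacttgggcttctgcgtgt
Canx: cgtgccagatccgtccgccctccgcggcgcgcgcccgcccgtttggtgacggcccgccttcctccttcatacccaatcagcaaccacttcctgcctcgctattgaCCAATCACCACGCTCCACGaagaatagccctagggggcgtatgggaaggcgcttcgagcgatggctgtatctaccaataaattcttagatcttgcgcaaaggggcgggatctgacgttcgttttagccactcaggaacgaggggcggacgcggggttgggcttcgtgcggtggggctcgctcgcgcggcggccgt
In Derl3 and Ero1b the element lies on the opposite strand, from -156 to -138 and from -201 to -183 counted from the start, and in Hspa5 from -65 to -47 on the gene's own strand.

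Of the 10 genes with the element 7 were higher in the adult gland and 2 lower, Canx and Pdia6, while Hsp90b1 differed by 0.09 ± 0.18 SE (adjusted p = 0.67). The element thus went with differences from -0.82 in Pdia6 to 8.37 in Derl3. The related sequence TGACGTGG stood in 2 of the 45 promoters (4.44%) and in 0.607% of all. Neither sequence was confined to the ER list. Of 44 promoters of the tear list 3 held the ER stress element (6.82%) and 2 held TGACGTGG (4.55%). These belonged to the exocrine secreted peptides Esp15, Esp16 and Esp18, which were not measured. A match describes letters and shows no binding.

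Cell cycle genes ran the opposite way. Of 40 measured members 39 were lower in the adult gland, with a median of -5.60, and 38 were at least 2-fold below both embryonic layers. The exception was the thymidylate synthase Tyms, with 0.86 and 0.19 against 0.27, 0.40 and 0.62 (0.10 ± 0.19 SE, limma adjusted p = 0.659). Mki67, the standard mark of cycling cells, had 0.43 and -0.14 in the adult gland against 6.10, 6.07 and 6.34 in the epithelium and 5.23, 5.29 and 5.41 in the mesenchyme, and was 65.1-fold lower in the adult gland than in the epithelium (adjusted p = 5.1e-15). Cyclin B1, Ccnb1, which drives entry into mitosis, had -2.89 and -4.74 against 4.60, 4.56 and 4.59, with 1 of the 2 adult arrays above background. Its probes differed by more than 3 log2 units in the same direction. The kinetochore motor Cenpe had -2.17 and -4.73 against 5.04, 4.86 and 4.80, with 1 of the 2 adult arrays above background, and the mitotic regulator Birc5 was 182-fold lower. Exo1 and Dtl, of DNA repair and of replication licensing, were below background on both adult arrays and at least 94.9-fold and 52.3-fold lower. The replication-dependent histones H2ac4 and H1f5, whose probes may read close copies, were lower too, H2ac4 326-fold and H1f5 with -2.69 and -3.31 against 5.29, 5.20 and 5.13, where 1 of the 2 adult arrays was above background.

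Promoters of the cell cycle list were searched for 2 short sequences known from genes of the G2 and M phases, TTTGAA, the core of the cell cycle homology region, and CCAAT, on both strands. Both stood together in 17 of the 35 promoters found (48.6%) and in 7.12% of all. TTTGAA alone counted was in 48.6% of the list and 18.1% of all, and CCAAT was in 77.1% and 37.9%. CCAAT was as frequent in the ER list (77.8%), where it also forms part of the ER stress element. Mki67 (chr7:135716330-135716629, minus strand) and Cdc20 (chr4:118437294-118437593, minus strand) are printed with both sequences in capitals, as 2 members whose levels were far lower in the adult gland.
Mki67: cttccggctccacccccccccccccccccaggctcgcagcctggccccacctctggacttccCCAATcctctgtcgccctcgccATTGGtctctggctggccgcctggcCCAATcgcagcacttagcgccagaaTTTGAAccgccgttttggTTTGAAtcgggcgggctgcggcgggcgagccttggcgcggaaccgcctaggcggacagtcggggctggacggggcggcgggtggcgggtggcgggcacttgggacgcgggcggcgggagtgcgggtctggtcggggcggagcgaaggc
Cdc20: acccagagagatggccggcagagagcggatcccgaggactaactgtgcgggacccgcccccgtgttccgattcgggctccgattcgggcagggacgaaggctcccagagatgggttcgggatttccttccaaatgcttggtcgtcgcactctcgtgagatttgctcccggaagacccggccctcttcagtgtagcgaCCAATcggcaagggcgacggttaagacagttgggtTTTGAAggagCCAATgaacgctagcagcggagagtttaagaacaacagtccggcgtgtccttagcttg
Cdc20, an activator of the anaphase-promoting complex, had -0.61 and -1.33 in the adult gland against 5.63, 5.67 and 5.98, 106-fold lower. Members without TTTGAA were far lower too, such as Ccnb1 (-8.40) and Cenpe (-8.35), whose promoters held CCAAT only. A link between the pair of sequences and the size of the difference was not tested.

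Inhibitors of the cell cycle did not mirror the cycling genes. Of 13 measured members 3 were higher (23.1%, against 31.2% of all genes) and 6 lower (46.2%, against 38.7%), with a median of -0.40. Cdkn2b, an inhibitor of the kinases that start the cycle, was 8.27-fold higher, at -1.23 and -0.30 against -3.55, -3.98 and -3.92. The pocket protein Rbl2, which holds cells out of the cycle, was 4.48-fold higher. Btg2 was 3.03-fold higher, a call lost with median scaling (1.13, adjusted p = 0.0659) and without adult replicate 2. Cdkn2d, Gadd45b and Ccng2 were lower, by 5.24-fold and 5.23-fold for the first 2 and by at least 4.15-fold for Ccng2, which was below background on both adult arrays.

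Among transcription factors of gland development 21 of 40 were not called and 15 were lower (37.5%, near the 38.7% of all genes). The other 4 were higher, 3 of these above background on both adult arrays, and the median was -0.38. The eye and lacrimal factor Pax6 had 2.49 and 3.40 in the adult gland against 2.26, 2.19 and 2.04 in the epithelium (0.77 ± 0.53 SE, adjusted p = 0.199), where the mesenchyme held -4.08 to -3.13. Foxc1, whose loss impairs lacrimal growth, had 3.55 and 4.01 against 4.63, 4.38 and 4.48 (-0.71 ± 0.35 SE, adjusted p = 0.0802). It was called lower with normexp correction, with median scaling, with slide as a block and with only the arrays compared in the fit. For Sox9 and Six2 the ages overlapped, with differences of 0.11 ± 0.27 and -0.24 ± 0.49 (SE). A missed threshold does not show that their levels were equal. Six2 had a further probe of the opposite direction.

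Other factors of the list were lower. Sox10, needed for acinar and myoepithelial cells, had 2.62 and 2.11 against 6.08, 6.14 and 6.24, 13.8-fold lower (adjusted p = 7.15e-09). Sox11, a factor of immature tissue, had 2.67, 2.59 and 2.94 in the epithelium and was below background on both adult arrays, at least 54.6-fold lower. Grhl3, of surface epithelium, was at least 27.6-fold lower, and Gata3, of glandular epithelium, was 37.5-fold lower at -2.60 and -1.93 against 3.02, 2.82 and 3.06. Barx2, which promotes lacrimal branching, had 1.70 on adult array 1 and -0.05 on array 2 against 2.27, 2.17 and 1.98. Its difference of -1.32 (adjusted p = 0.0353) lost its call under 7 of 19 alternatives, of which the within-slide ones hold no test. It became -0.44 without adult replicate 2. The other Barx2 probe had -2.87 and -4.13 in the adult gland against 0.43, 0.53 and -0.33, a larger difference of -3.71. On adult array 2 that probe lay below the lowest signal of any probe well above background.

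Foxa1, a pioneer factor of endodermal and hormone-responsive glands, had the largest gain among the factors. It had 4.42 and 5.02 in the adult gland against -5.36, -7.18 and -6.65, all below background, and was at least 913-fold higher (11.12 ± 0.68 SE, adjusted p = 8.42e-11). Ascl3, known from progenitor and duct cells of exocrine glands, was 7.56-fold higher, at -1.82 and -1.62 against -4.81, -4.56 and -4.54. Otx1 was 2.57-fold higher, a call lost with median scaling and on leaving out any 1 of adult replicate 2 and the 3 embryonic arrays.

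Genes of FGF signalling, the pathway that drives branching, were lower in 18 of 24 cases and higher in 3, with a median of -1.93. The response factors Etv4 and Etv5 had -0.10 and -0.65, and 1.52 and 1.24, in the adult gland. In the epithelium Etv4 had 5.60, 5.98 and 6.14 and Etv5 had 7.58, 7.58 and 7.76, so that they were 77.6-fold and 76.7-fold lower in the adult gland. The feedback inhibitor Il17rd was 36.0-fold lower. The receptor Fgfr2 was 2.34-fold lower, at -0.79 and -0.48 against 0.60, 0.54 and 0.63 (limma adjusted p = 5.52e-08). Its other probe gave a larger difference of -3.24.

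The ligand Fgf10 had -2.32 and -1.61 in the adult gland, -1.67, -2.06 and -0.95 in the epithelium and 4.17, 4.34 and 4.19 in the mesenchyme. The adult level overlapped that of the epithelium (-0.41 ± 0.79 SE, adjusted p = 0.659) and differed from the mesenchyme by -6.20. The related ligand Fgf7, the phosphatase Dusp4 and the factor Etv1 were 2.23-fold, 1.81-fold and 1.73-fold higher, and these 3 calls were lost with median scaling, those of Fgf7 and Etv1 also without adult replicate 1, which left 1 higher member.

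Wnt response genes were lower in 11 of 19 cases (57.9%, against 38.7% of all genes), with a median of -1.31. In 2 cases they were higher (10.5%, against 31.2% of all genes), 1 of them above background on both adult arrays. The inhibitor Sfrp1 was 21.8-fold lower, at -0.18 and -0.09 against 4.45, 4.36 and 4.12, and Lgr5 and Tcf7 were below background on both adult arrays. The receptor Fzd10 was 10.6-fold higher, at 0.68 and 1.36 against -1.84, -2.74 and -2.55, and the Wnt antagonist Sfrp5, named by its place among the largest differences of marked genes, was 1542-fold higher, with 1 of the 3 embryonic arrays above background. Without adult replicate 1 the list had 1 higher. In the hedgehog, BMP and Notch list 14 of 23 were lower and 5 higher, 2 of these above background on both adult arrays, with a median of -1.39. The Notch targets Hey1 and Hes5 and the ligand Jag2 were 39.1-fold, at least 6.57-fold and 30.7-fold lower. Notch1 itself had 1 probe at 2.72 and another at -1.02, so its direction is not settled.

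Fetal genes were lower in the adult gland for most members. Of 16 RNA-binding and chromatin genes 11 were lower and 3 higher, 2 of them above background on both adult arrays, with a median of -3.96. The mRNA-binding proteins Igf2bp3 and Igf2bp1 had 2.30, 2.02 and 2.68, and 1.82, 1.92 and 2.31, in the epithelium, and were below background in the adult gland, at least 41.4-fold and 33.2-fold lower. The chromatin protein Hmga2 was at least 58.1-fold lower. Lin28b, the repressor of let-7 maturation, was above background in neither group, which leaves no fold, while it had -2.66, -2.73 and -2.80 in the mesenchyme. Its relative Lin28a had 2.67 and 1.62 in the adult gland against -1.36, -1.18 and -1.45, 11.1-fold higher (adjusted p = 1.05e-06).

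Imprinted growth genes were lower in 12 of 17 cases and higher in 3, 2 of these above background on both adult arrays, with a median of -3.17. They are largely genes of the mesenchyme: 11 of the 17 carried the mark, yet all 12 that were lower lay at least 2-fold below both layers. Dlk1, a fetal membrane protein of the Notch ligand family, had -2.87 and -3.30 in the adult gland, 5.40, 5.43 and 5.57 in the epithelium and 9.36, 8.88 and 9.21 in the mesenchyme, with 1 of the 2 adult arrays above background. Mest and the amino acid transporter Slc38a4 were at least 90.3-fold and 49.4-fold lower. The 3 Mest probes differed by -8.17, -6.66 and -3.77. The growth factor Igf2 had -1.43, -1.18 and -1.40 in the epithelium and 2.90, 2.79 and 2.70 in the mesenchyme, and was below background in the adult gland, at least 3.24-fold lower. Ascl2, a factor of placenta and intestinal stem cells, was 1 of the 3 higher members, 22.7-fold higher at 4.77 and 5.31 against 0.69, 0.39 and 0.52.

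The lowest difference of all named genes belonged to a cartilage collagen. Col2a1 had 6.42, 6.53 and 6.87 in the epithelium, -5.34 and -4.83 in the adult gland, where it was below background, and 1.62, -0.81 and 1.36 in the mesenchyme. It was at least 798-fold lower (-11.69 ± 0.60 SE, adjusted p = 7.06e-12). Col9a1, its partner on cartilage fibrils, had 6.16, 6.14 and 6.28 against -5.39 and -4.86, and Col9a3 was at least 24.0-fold lower. Of 13 measured members of this list 7 were lower (53.8%, against 38.7% of all genes). Another 3 were higher (23.1%, against 31.2% of all genes), 2 of these above background on both adult arrays. Sox5, a cofactor of Sox9, was 2.15-fold higher, a call lost with median scaling and with the median over its probes.

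Genes known from neural tissue and other embryonic organs stood among the lowest differences too. Bex1 had 5.70, 5.47 and 5.84 in the epithelium and -5.57 and -5.07 in the adult gland, a difference of -10.99. Its other probe differed by -7.12. The fatty acid-binding protein Fabp7 of immature glia was at least 233-fold lower, the guidance cue Sema3b 266-fold lower and the retinol transporter Stra6 at least 83.7-fold lower. The heparin-binding growth factor Ptn and the hyaluronan synthase Has2 were also lower, Ptn with -3.07 and -5.01 in the adult gland, 1 of 2 arrays above background, against 4.21, 3.47 and 3.71, and Has2 at least 107-fold. The embryonic muscle myosin Myh3 had 2.13, 2.12 and 2.11 in the epithelium against -3.29, -4.61 and -3.02 in the mesenchyme, and was at least 35.7-fold lower in the adult gland. Over the neuronal list 5 of 15 were lower (33.3%, against 38.7% of all genes) and 2 higher. Fewer were higher without adult replicate 1.

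Lipid synthesis genes were lower in 16 of 25 cases and higher in 3, 2 of them above background on both adult arrays, with a median of -0.98. The elongase Elovl6 had 0.04 and -1.08 against 3.84, 3.79 and 4.41, 23.1-fold lower (adjusted p = 2.75e-10), and the sterol demethylase Cyp51 at least 13.6-fold lower. The desaturase Scd1 was 4.52-fold higher, at 3.27 and 3.26 against 1.45 at most in the epithelium. The sterol sensor Insig1 was 1.90-fold higher, a call lost with median scaling. Among genes of oxidative phosphorylation 13 of 27 were lower (48.1%, against 38.7% of all genes) and 13 were not called. Only 1 was higher (3.70%, against 31.2% of all genes), and the median was -0.50. The coactivator Ppargc1a and the tricarboxylic acid cycle enzymes Idh3a and Cs were 4.09-fold, 2.71-fold and 2.28-fold lower, and Uqcrb of complex III was 3.21-fold higher.

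Immune transcripts were higher in the adult gland than in the epithelium. Of 22 genes of antigen presentation and the interferon response 21 were higher, 19 of them above background on both adult arrays, and 0 lower, with a median of 3.45, and 19 were at least 2-fold above both embryonic layers. The class II gene H2-Aa had 3.24 and 2.57 against embryonic arrays all below background, at least 260-fold higher, and H2-Eb1 had 5.80 and 5.26 against -1.64, -1.42 and -1.73, 140-fold higher. The interferon-induced gene Ifit3 had 1.78 on adult array 1 and -0.48 on array 2, above all embryonic arrays (-6.53, -7.16 and -4.80), of which 1 of 3 was above background. Macrophage, T cell and mast cell markers were higher in 20 of 26 cases, and 21 of the 26 carried the mesenchyme mark. Their summed signal, as multiples of the 75th percentile, was 125 to 182 in the adult gland, 36.6 to 41.3 in the epithelium and 232 to 262 in the mesenchyme. Cd14 and Lyz2, of monocytes and macrophages, were 26.2-fold and 29.7-fold higher.

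B cell and plasma cell markers were higher in 9 of 11 cases, 6 of them above background on both adult arrays, and 1 was lower. Their summed signal reached 55.6 in the adult gland, with both adult arrays close together, 13.3 to 16.7 in the epithelium and from 18.1 upward in the mesenchyme. Jchain, which joins secreted immunoglobulin A, had 3.38 on array 1 and 0.83 on array 2 against -5.66, -4.84 and -4.95, 153-fold higher with 1 of the 3 embryonic arrays above background (adjusted p = 0.000424). The B cell coactivator Pou2af1 was 16.3-fold higher, at 2.85 and 1.68. Of 9 markers of lymph nodes and follicles 5 were higher, 4 of them above background on both adult arrays, and 3 without adult replicate 1.

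Fibroblast markers, all 30 of which carried the mark, summed to 279 and 324 in the adult gland, 203 to 256 in the epithelium and 2624 to 3222 in the mesenchyme. Of these, 8 were higher than in the epithelium (26.7%, against 31.2% of all genes) and 17 lower (56.7%, against 38.7%), with a median of -0.98. Dermatopontin, Dpt, complement C3 and Pi16, markers of mature fibroblasts, were higher and lay above the mesenchyme too. C3 was 74.5-fold and Pi16 58.2-fold higher, and Dpt had 0.71 and 0.34 against -4.18, -6.80 and -7.31, with 1 of the 3 embryonic arrays above background. The collagen Col5a1 and the glycoprotein Fstl1 were 12.1-fold and 7.34-fold lower, at -0.87 and -1.32, and 2.33 and 1.21, in the adult gland.

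Vessel markers were higher in 6 of 18 cases (33.3%, near the 31.2% of all genes), 5 of them above background on both adult arrays, and lower in 3. Their summed signal of 31.7 and 48.2 in the adult gland compared with 22.7 to 33.1 in the epithelium and 157 to 178 in the mesenchyme. Vwf and Pecam1 of endothelium were 8.26-fold and 6.12-fold higher, and Egfl7 was 5.20-fold lower. Without adult replicate 1 there were 4 higher vessel markers. Pericyte markers were higher in 1 and lower in 3 of 8 (37.5%, near the 38.7% of all genes). The higher call was lost without adult replicate 1. Adipocyte markers were higher in 9 of 14 cases and lower in 0, with sums of 17.2 and 36.5 against 3.17 to 3.46 in the epithelium and 54.3 to 62.2 in the mesenchyme. The defining genes Adipoq and Cfd were below background on the embryonic epithelial arrays and at least 42.1-fold and 308-fold higher, and both were higher on adult array 1 (1.04 and 3.87) than on array 2 (-0.48 and 2.43). Red cell markers were lower in 7 of 11 cases, with sums of 148 and 209 in the adult gland against 948 to 1847 in the epithelium and 2108 to 3409 in the mesenchyme. Hbb-y, an embryonic globin, was at least 10.1-fold lower and the adult globin Hba-a1 9.24-fold lower.

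**Figure D4:**
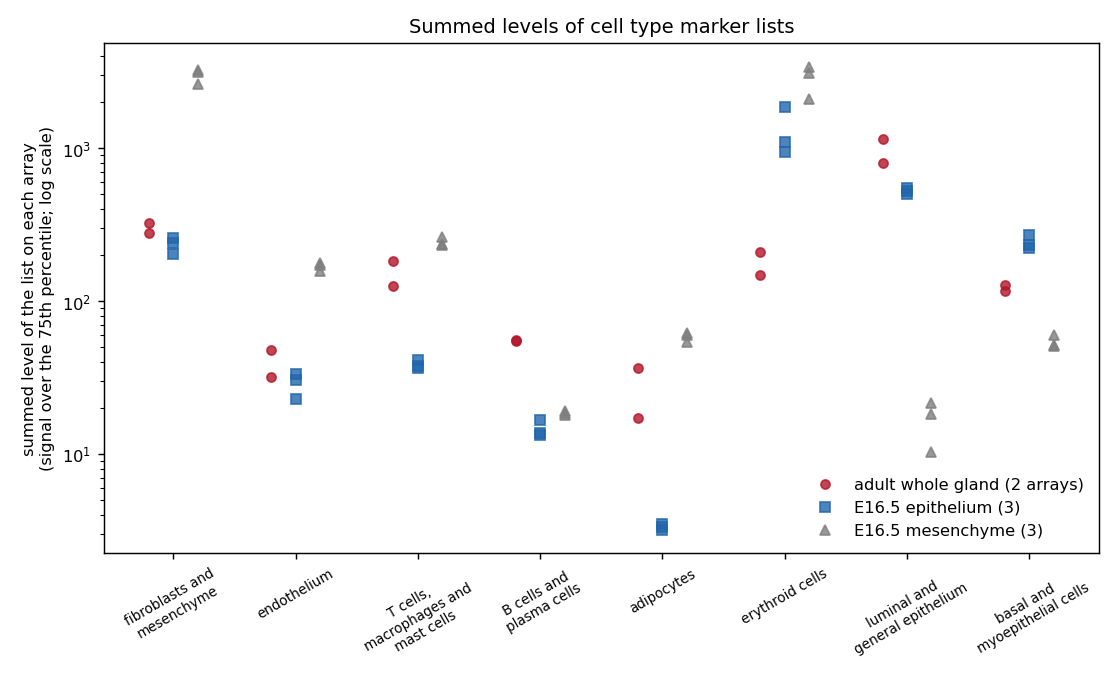
Summed signal of cell type marker lists on each array, as multiples of the array's 75th percentile on a log axis, for the adult whole gland (red circles, 2 arrays), E16.5 epithelium (blue squares, 3) and E16.5 mesenchyme (grey triangles, 3). Fibroblast sums of the adult gland (279 and 324) lie close to the epithelium and far below the mesenchyme (2624 to 3222), whereas B cell and plasma cell sums (up to 55.6) lie above both.

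Markers of the remaining cell types gave smaller counts, to be read beside the shares over all genes, 31.2% higher and 38.7% lower. For the conjunctiva list and for the lens list 33.3% were higher, near that share. Of 15 Schwann and pigment cell genes 6 were higher, 2 of them above background on both adult arrays, and 4 lower, or 2 lower without adult replicate 1. Of 20 skeletal muscle genes 5 were higher, again 2 of them above background, and 1 lower, with 3 higher without adult replicate 1. For conjunctiva, cornea and epidermis the counts were 6 higher, 1 of them above background, and 4 lower of 18, or 2 lower without adult replicate 1. For lens and retina they were 3 higher, 2 of them above background, and 3 lower of 9.

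The epithelial labels held against their own markers. Epcam had 4.35, 4.22 and 4.66 in the separated epithelium, -0.77, -2.12 and -0.70 in the mesenchyme and 2.81 and 3.23 in the adult gland. Of 27 luminal and general epithelial markers 10 were higher in the adult gland (37.0%, against 31.2% of all genes), 9 of them above background on both adult arrays. Another 7 were lower (25.9%, against 38.7% of all genes). Both counts were smaller without adult replicate 1. The claudin Cldn10, of fluid-secreting epithelium, was 18.6-fold higher, the membrane protein Prom2 14.8-fold and the protease Prss8 4.20-fold. Cldn6, a claudin of embryonic epithelium, was at least 22.2-fold lower and the keratin Krt19 27.6-fold lower.

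Basal and myoepithelial genes were lower in 10 of 18 cases (55.6%, against 38.7% of all genes), with a median of -1.29. In 5 cases they were higher (27.8%, near the 31.2% of all genes). Higher were the contractile proteins Myh11, at 0.23 and 0.45 against -4.27, -4.53 and -5.39 with 2 of the 3 embryonic arrays above background, and Cnn1, 31.6-fold at 3.90 and 3.77 against -0.93, -1.16 and -1.34. Lower were the basal keratin Krt15, at least 63.2-fold, and the placental cadherin Cdh3, at least 42.5-fold. Smooth muscle of vessels shares Myh11 and Cnn1.

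Genes known to respond to handling, time of day or sex were examined as well. Among immediate early and heat shock genes 8 of 15 were lower in the adult gland (53.3%, against 38.7% of all genes), with a median of -0.94. Egr1, Fos and Jun were 26.6-fold, at least 15.9-fold and 6.27-fold lower. Clock output genes were higher in 5 of 14 cases (35.7%, near the 31.2% of all genes) and lower in 2, or 1 without adult replicate 1. Nr1d1 was 9.34-fold and Arntl 8.64-fold higher, where Arntl had 0.88 on adult array 1 and 3.38 on array 2, and the clock-controlled factor Hlf was 36.1-fold lower. The Y-linked genes Eif2s3y and Ddx3y had 1.15 to 1.22 and 0.51 to 0.66 in the epithelium and were below background on both adult arrays, at least 18.6-fold and 12.3-fold lower, while Xist differed by -0.59 (adjusted p = 0.101). Since the labels give no sex, the sex composition of the groups and age cannot be told apart. This holds for any difference between the adult gland and the embryonic epithelium, not for such genes alone.

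The Harderian gland, a lipid-secreting gland of the mouse orbit, was measured at the same ages and allowed a test of whether the age difference belonged to the lacrimal gland. The test was the difference of both age differences, adult minus epithelium in the lacrimal gland minus the same in the Harderian gland (3 and 3 arrays), which share no array. It was called above zero for 2952 genes (18.1%) and below zero for 4428 (27.1%). For 44 of the 55 ER genes the lacrimal difference was the greater one and for 1 the smaller, and the median of the list was 1.57 in the lacrimal and 0.07 in the Harderian gland. For 24 of 35 tear genes it was greater and for 1 smaller. For 22 of 25 lipid synthesis genes the lacrimal difference was the smaller one, with a median of -0.98 against 3.22. For cell cycle genes, 11 were greater and 16 smaller, with medians of -5.60 and -5.61. Mitochondrial genes were smaller in the lacrimal gland in 17 of 27 cases and greater in 0. The adult Harderian samples are whole glands as well. Their adipocyte marker sums were 687, 657 and 1245, against 36.5 and 17.2 on the adult lacrimal arrays. Skeletal muscle markers summed to 205, 18.4 and 3.12 on the same 3 Harderian arrays. The part of such tissue in the gaps between glands was not tested.

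Among the widest gaps in favour of the lacrimal gland was that of the serpin Serpinb11, with an age difference of 11.54 here and -1.66 in the Harderian gland (gap 13.20 ± 1.22 SE, adjusted p = 8.06e-08). It had 4.59 and 5.03 in the adult gland against -7.24, -5.41 and -7.56, all below background, and was at least 969-fold higher. Gm12887, Gm12888 and Gm12886, predicted genes with related names, followed with gaps of 13.14, 12.92 and 12.35, and may share signal between their probes. Lcn11 differed by 17.82 here and by 4.86 there. The lacrimal epithelial arrays were also below background for these predicted genes, for Lcn11 and for Foxa1, so the size and order of such gaps rest on signals that were not measured above background. Bhlha15 was lower with age in the Harderian gland (-1.24) and higher here (7.80), a gap of 9.04 ± 0.63 SE (adjusted p = 2.24e-09), and Foxa1 differed by -0.18 there and by 11.12 here.

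Gaps in favour of the Harderian gland were led by the peptide precursor Cartpt, at 2.78 here and 14.23 there (gap -11.44 ± 0.77 SE, adjusted p = 1.22e-09). The acyltransferase Mboat2 was lower here (-7.09) and higher there (3.86). The ceramide synthase Cers4 had -2.30 and 8.05, the microsomal enzyme Mgst2 (above background on 1 of the 2 adult lacrimal arrays) -2.12 and 7.89, and the elongase Elovl6 -4.53 and 5.05. Scd1 rose with age in both glands, by 2.17 here and 9.19 there. Gm3776, the last of the 5 that the rule names, had -3.61, -4.39 and -3.30 in the epithelium and was below background in the adult gland, which leaves no fold. Its difference of -1.07 turned to 0.84 with normexp correction.

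**Figure D5:**
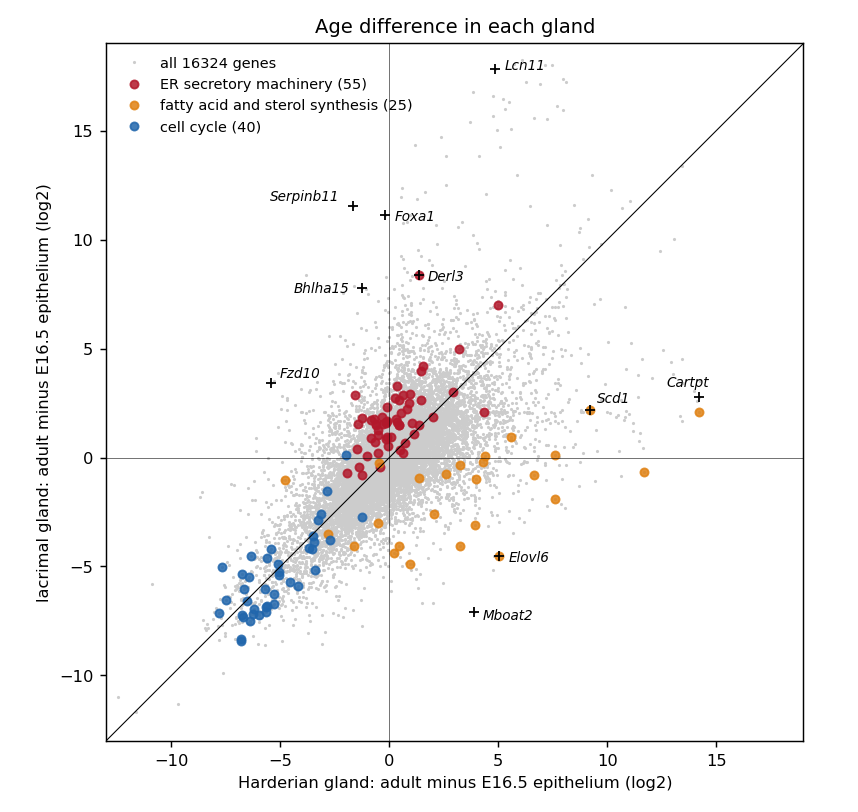
Age difference (adult minus E16.5 epithelium, log2) of each of 16324 genes in the Harderian gland (horizontal axis, 3 and 3 arrays) and the lacrimal gland (vertical axis, 2 and 3 arrays); colours mark 3 gene lists and crosses mark named genes, and the diagonal is an equal difference. Most of the 55 ER genes lie above the diagonal, most of the 25 lipid synthesis genes below it, and most of the 40 cell cycle genes at the lower left, on both sides of it.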

How the data were processed

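RNA of 23 mouse samples was hybridised to 1-colour Agilent arrays, 1 sample to an array. The values are spot intensity (background-subtracted processed signal) as deposited by the authors in scanner output, made with Agilent Feature Extraction 11.5.1.1 per the submitters' processing notes. Per the file headers, slide 1 (7 arrays, no adult lacrimal array) was read with version 11.0.1.1 and slides 2 and 3 (8 arrays each) with 11.5.1.1. The authors' deposited value table, which holds unlogged intensities and was converted to log2 here, was used as an alternative only.

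Control and outlier spots were left out, spots of a probe were averaged, and log2 signal was scaled by the 75th percentile of each array. Names came from RefSeq accessions: 27509 of 55681 probes matched 20887 symbols. A gene is represented by its brightest probe, and 16324 genes passed the filter on dim signal. The filter kept probes well above background on every array of any group. One limma (3.58.1, R 4.3.3) model over the 8 groups gave every difference, SE and p, adjusted by Benjamini-Hochberg, and it was tested on simulated data. The SE uses a spread shared by all groups. The number of arrays, 2 and 3, limits the precision. Replicate numbers were not used as pairs.

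The arrays compared and the gene lists were chosen with earlier results of these data known. Genes named are the 15 highest and 15 lowest called differences, the 5 highest among marked genes, the 10 highest and 10 lowest outside both embryonic layers, up to 3 highest and lowest of each list, the 5 highest and lowest gaps between glands, and a fixed set of gland genes. Others were chosen after their values were seen, and some results are not reported here. Alternatives changed background correction (normexp on the median signal, since the mean signal was not in the columns used), scaling, filter, probe choice, blocks, arrays in the fit and variance model, and left out each array in turn.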

Additional observations from a re-analysis of the deposited data

Results flagged for a closer look

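The age difference of the lacrimal gland minus that of the Harderian gland passed the test (limma, adjusted p under 0.05) for each gene here, and a signed gap on the log2 scale is given for each. Named for the highest and lowest gaps were Serpinb11 (13.20), Gm12887 (13.14), Lcn11 (12.96), Gm12888 (12.92) and Gm12886 (12.35), and Cartpt (-11.44), Mboat2 (-10.95), Gm3776 (-10.49), Cers4 (-10.35) and Mgst2 (-10.01). The gap of Gm3776 rests on a lacrimal difference of -1.07 close to the floor, against 9.42 in the Harderian gland.

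Other genes were called in both glands with opposite directions. Higher with age in the lacrimal gland and lower in the Harderian gland were the secretory factor Bhlha15 (gap 9.04), the membrane protein Prom2 (9.02), the Wnt receptor Fzd10 (8.86), Ascl2 (5.66), Etv1 (3.24) and Sox5 (1.69). Lower in the lacrimal and higher in the Harderian gland were the elongase Elovl6 (-9.58), Ccng2 (-5.05), P2ry2 (-3.88) and the citrate synthase Cs (-1.66). The lacrimal calls of Etv1, Sox5 and P2ry2 were lost under at least 1 alternative.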

How the results depend on the processing

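Of 169 named genes 146 kept their side of the threshold under every alternative with a test, and any call kept its direction. Under at least 1 alternative 18 lost the call, 5 gained it and 5 turned a direction called as reported or under the alternative. The differences of Sox9, Six2, Fgf10, Tyms and Hsp90b1, not called as reported, also changed sign, with no call where they did. Called directions turned for Gm3776 with normexp correction (0.84), Ssr1 with the median over probes (0.40), Lin28b with quantile normalization (-0.61), and Prb1 (-0.024) and Dcpp1 (-3.68) without adult replicate 1, against 8.73 and 7.74 without adult replicate 2. Higher genes numbered 3228 with median scaling and 8738 with no filter, which also tests dim genes, and at least 2-fold higher genes 7686 with no filter. Genes above both layers numbered 5896 with no filter, and marked genes 2000 with a mark of at least 2 log2 units. Of the genes at least 2-fold higher, 22.2% were marked with normexp correction and 19.9% with no filter. The gap between glands was above zero for 4677 genes with normexp correction, 1474 with median scaling and 5034 with no filter, and could not be run on the 5 arrays alone. Of all calls, 54.4% were higher with normexp correction, 53.5% with scaling over detected probes and 58.1% with no filter. Leaving out 1 array gave 4421 to 4985 higher and 5353 to 6306 lower genes, 3749 to 4125 and 4272 to 5024 at 2-fold, 2404 to 2615 above and 2905 to 3394 below both layers, 3122 to 3184 marked, 32.2% to 35.3% marked, and 2418 to 2969 and 3653 to 4582 gaps. An arm left with 1 array is assumed to vary like the other groups. With the replicate block 5379 genes were higher and 6435 lower. Blocking the arrays by slide gave 5612 and 6712. Deviations of arrays with the same number correlated at -0.02 and -0.34, so the numbers were not taken as pairs. Adult and epithelial arrays that shared a slide correlated at 0.34 on slide 2 and 0.30 on slide 3. As only 2 adult arrays exist, their deviations mirror each other, and the -0.34 is the slide 2 value with its sign changed. The main model has no term for slide. The cause of these changes was not tested.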
